A study of Mus musculus with 4 samples.

Results

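The EGF family ligands and the ErbB receptors were described in mouse mammary rudiments at 4 stages between bud formation and birth. The 10 genes were taken by symbol from the 30406 genes shared by the 4 libraries, and all 10 were found in every library. They comprised 6 ligands (Areg, Btc, Epgn, Ereg, Hbegf and Tgfa), 3 receptors (Egfr, Erbb2 and Erbb3) and Errfi1. All samples were mammary tissue of untreated female WT C57B6 mice (substrain N in the study's methods), taken on embryonic days E13.5, E14.5 or E15.5 or on the day of birth (P0). For each stage the rudiments of several animals were pooled in a separate dissection session, and live cells that did not carry the CD45, CD31 or Ter119 surface markers were sequenced as 1 droplet library. With 1 library per stage no test between stages was possible. Stage cannot be told apart from the library, from the different enzyme mixture and added red cell lysis of P0, or from the older Cell Ranger version used for E15.5.

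Only barcodes with 5000 or more UMIs, of which no more than 6% were mitochondrial, were kept. In stage order these were 235, 76, 816 and 503 cells. A cell was assigned to epithelium or mesenchyme by the larger of the summed UMIs of Epcam, Krt8, Krt18, Krt5 and Krt14 and of Col1a1, Col1a2 and Col3a1. This gave 98, 45, 532 and 230 epithelial and 135, 31, 283 and 273 mesenchymal cells. At every stage all 6 epithelial and all 7 mesenchymal marker genes that the rule did not use were higher in their own tissue. Depth differed, with a median of 9973 UMIs per epithelial cell at P0 against 24695.5 at E15.5. Levels are given in CPM, the UMIs of a gene in the summed cells of a class scaled to a common total. Each UMI counts 1 captured transcript end, so levels were not divided by gene length. Intervals are exact 95% intervals that cover counting error only, not the spread between cells or animals.

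EGF family ligands are made as membrane-anchored precursors and are released by shedding proteases. They bind EGFR, the product of Egfr, which pairs with itself or with other ErbB receptors and signals through the RAS and ERK cascade. ERBB2 binds no ligand and ERBB3 has little kinase activity of its own, so both act mainly as partners. Errfi1 encodes MIG6, an inhibitor of activated EGFR. In the postnatal mammary gland amphiregulin, the product of Areg, is known as the ligand that relays oestrogen signals to neighbouring cells during ductal growth.

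Epgn, Ereg, Areg and Btc lie in this order on chromosome 5, within 376 kb of one another (GRCm38, GENCODE M21). Areg is at chr5:91139599-91148432 and Epgn at chr5:91027464-91035215, both protein-coding genes on the + strand. The sequences before the annotated starts of Areg and Epgn (RefSeq, GRCm38.p6, + strand, 5′ to 3′) are shown because these neighbours had the highest and the lowest ratio of P0 to E15.5 epithelium among the ligands. The Areg sequence is chr5:91139349-91139598, and the Epgn sequence is chr5:91027267-91027463, which ends before the more upstream of its 2 annotated starts. Capitals mark TATAAA and TGACGTCA, the letters of a full CRE, the element bound by CREB and ATF factors.
Areg: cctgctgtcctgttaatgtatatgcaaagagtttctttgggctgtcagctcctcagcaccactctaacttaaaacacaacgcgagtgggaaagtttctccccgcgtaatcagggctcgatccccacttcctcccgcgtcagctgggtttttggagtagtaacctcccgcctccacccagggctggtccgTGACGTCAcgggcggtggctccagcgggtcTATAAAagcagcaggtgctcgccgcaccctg
Epgn: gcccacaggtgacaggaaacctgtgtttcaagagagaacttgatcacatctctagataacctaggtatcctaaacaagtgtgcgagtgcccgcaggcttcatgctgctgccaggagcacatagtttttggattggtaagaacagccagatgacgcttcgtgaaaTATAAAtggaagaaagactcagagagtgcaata
TATAAA began 31 bases before the GENCODE start of Areg and 33 bases before that of Epgn. TGACGTCA began 61 bases before the Areg start and was not in the Epgn sequence. Both strands were searched. Over the 250 bases before the start, TATAAA was present in 12.3%, TGACGTCA in 1.56% and the AP-1 letters TGANTCA, found in neither sequence, in 6.73% of 32526 RefSeq promoters. These are matches of letters, not measured sites.

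Areg was the ligand with the widest range of levels in epithelium. Its level was 7.35 CPM (4.11 to 12.1, 15 UMIs) at E13.5, 15.7 CPM (9.59 to 24.3, 20 UMIs) at E14.5, 72.8 CPM (68.4 to 77.3, 1040 UMIs) at E15.5 and 1110.4 CPM (1070.4 to 1152, 2903 UMIs) at P0. The E13.5 and E14.5 intervals overlapped, and the E15.5 and P0 levels each stood above all earlier ones. An Areg UMI was present in 70.4% of P0 epithelial cells against 9.89% of P0 mesenchymal cells, at median depths of 9973 and 8743 UMIs. After each cell was thinned to 5000 UMIs these shares were 62.2% and 7.33%, and the epithelial share at E15.5 was 22.2%. The P0 transcripts were unevenly spread, with 466 of the 2903 UMIs in a single cell and 64.6% of them in the 23 cells that held most.

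Hbegf, which encodes a heparin-binding ligand, was the ligand second to Areg at P0. Its epithelial level was 28.9 CPM (22.0 to 37.3) at E13.5, 25.1 CPM (17.2 to 35.5) at E14.5, 68.8 CPM (64.5 to 73.2) at E15.5 and 407 CPM (383 to 432) at P0. As for Areg, the E13.5 and E14.5 intervals overlapped and the P0 level was the highest. Hbegf was spread over more cells than Areg, since the 23 P0 cells with most of it held 39.2% of its UMIs.

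Epgn, the gene of epigen, showed another order. Its epithelial level was 30.4 CPM (23.3 to 38.9) at E13.5, 19.6 CPM (12.7 to 29.0) at E14.5, 69.9 CPM (65.6 to 74.4) at E15.5 and 55.1 CPM (46.5 to 64.8) at P0. The highest level was thus at E15.5, and the P0 interval lay just below the E15.5 interval. At E15.5 the 54 epithelial cells with most Epgn held 78.8% of its UMIs, with up to 79 UMIs in 1 cell.

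The other 3 ligands were rarer. Tgfa, the gene of TGFα, was in epithelium at 0.980, 0.785, 11.5 and 58.1 CPM in stage order, from 2, 1, 164 and 152 UMIs. Btc, the gene of betacellulin, was at 4.41, 1.57, 3.01 and 21.0 CPM, from 9, 2, 43 and 55 UMIs. Ereg, the gene of epiregulin, had no UMI at E13.5, where 3 UMIs would be 1.47 CPM, and was at 0.785, 1.33 and 9.94 CPM at the later stages. For all 3 the P0 level was the highest of the epithelial levels, and before E15.5 none had more than 9 UMIs.

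**Figure D1:**
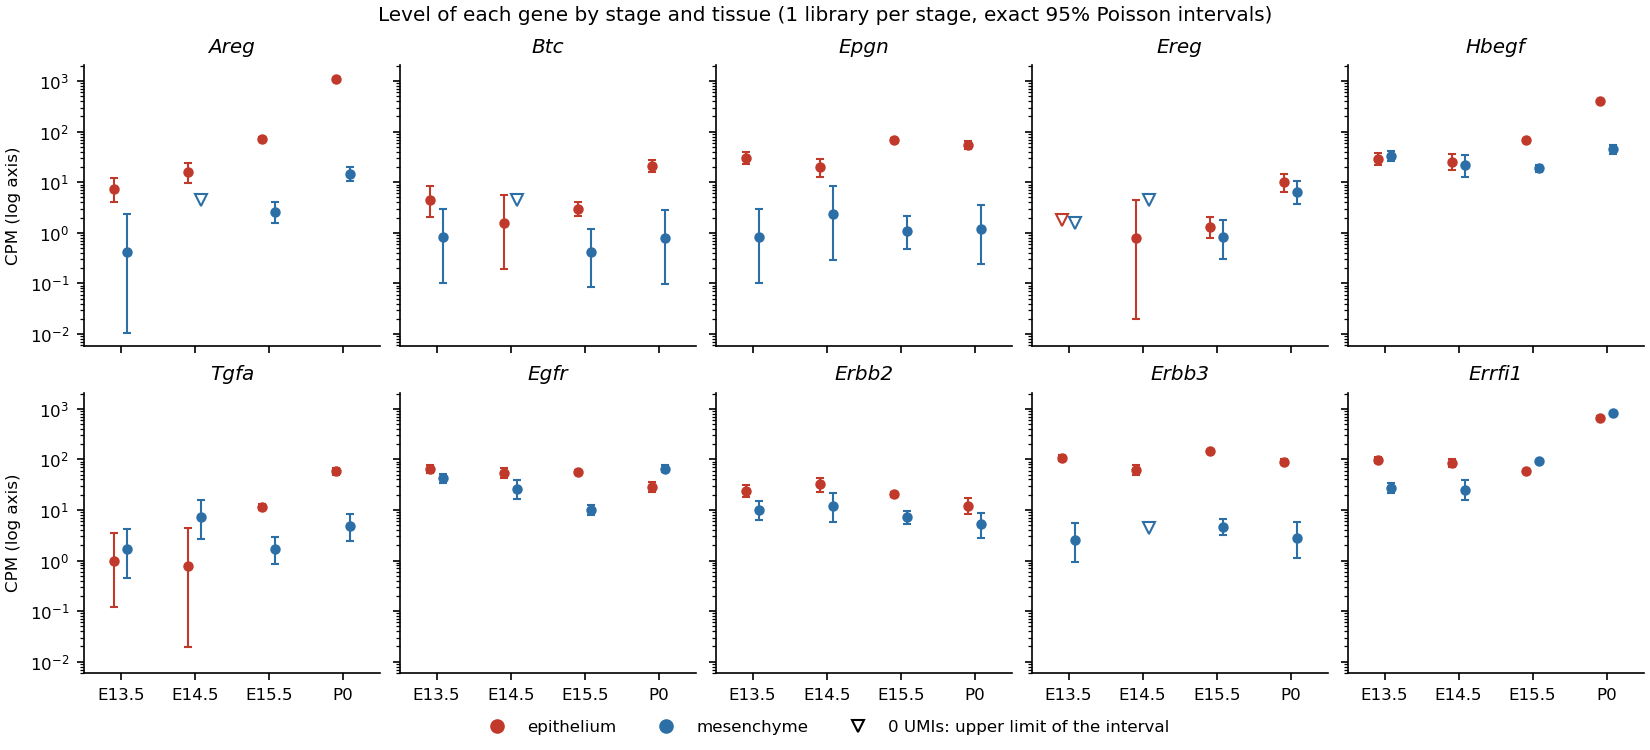
Level of each gene in CPM (log axis) by stage in epithelium (red) and mesenchyme (blue), with exact 95% Poisson intervals and open triangles at the upper limit where no UMI was counted. Areg reaches 1110.4 CPM in P0 epithelium, Erbb3 lies between 62.8 and 146 CPM in epithelium and at most at 4.68 CPM in mesenchyme, and Egfr is higher in mesenchyme than in epithelium at P0 only.

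The make-up of the ligand transcripts in epithelium differed between stages, with no ligand above 42.2% before P0 in the summed UMIs of all epithelial cells and Areg at 66.8% at P0. The 6 ligands together were at 72.0 CPM (60.8 to 84.6) at E13.5, 63.6 CPM (50.5 to 79.1) at E14.5, 227 CPM (219 to 235) at E15.5 and 1661 CPM (1612 to 1711) at P0. Areg made up 10.2% (5.82 to 16.3), 24.7% (15.8 to 35.5), 32.0% (30.4 to 33.7) and 66.8% (65.4 to 68.2) of this pool in stage order. Epgn made up 42.2%, 30.9%, 30.8% and 3.32% (2.80 to 3.89), and Hbegf 40.1%, 39.5%, 30.3% and 24.5% (23.2 to 25.8). At E15.5 the shares of Areg, Epgn and Hbegf thus lay within 2 percentage points of one another, and at P0 they were far apart. The smaller Epgn share at P0 came with a larger pool and a similar Epgn level. When each cell was thinned to 5000 UMIs, so that deep cells weighed no more than shallow ones, the Areg share at P0 was 61.0% and the Epgn share 4.21%. The shares before P0 moved with thinning and with the clusters included. The thinned Areg share at E14.5 was 61.5%, near that at P0, from a pool with few UMIs. Without skin-like and periderm-like cells Epgn made up 56.0%, Areg 28.0% and Hbegf 12.0% of the E13.5 pool.

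**Figure D2:**
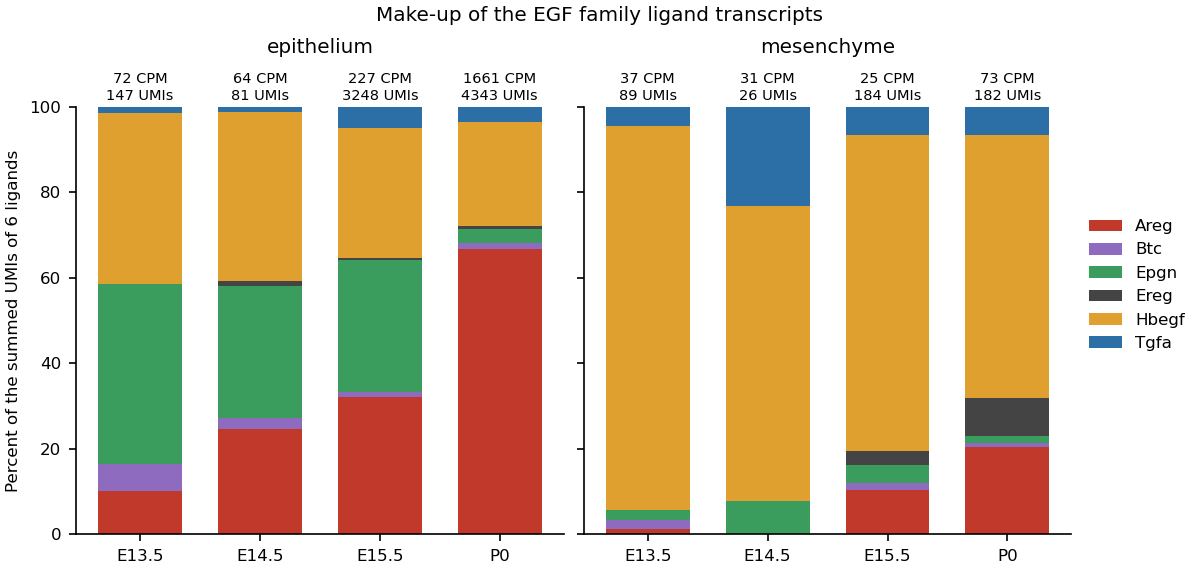
Share of each ligand in the summed UMIs of 6 ligands, in percent, by stage in epithelium (left) and mesenchyme (right), with the summed level and UMI number above each bar. In epithelium the Areg share is 32.0% at E15.5 and 66.8% at P0, whereas Hbegf holds 61.5% to 89.9% of the mesenchymal pool at every stage.

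Next, P0 was compared with E15.5 epithelium. A gene was called from a ratio of 2 in either direction with at least 20 UMIs in both classes together, a rule of size and not a test. All 10 genes had enough UMIs, 6 were called higher at P0 and none lower, while 15% of the 12247 genes tested were called higher and 18.5% lower. The median log2 ratio was 2.45 over the 10 genes and -0.11 over all genes tested. Areg was 15.3 times (14.2 to 16.4) higher at P0, Errfi1 11.5 times (10.6 to 12.5), Ereg 7.48 times (3.98 to 14.3), Btc 6.99 times (4.61 to 10.7), Hbegf 5.91 times (5.42 to 6.45) and Tgfa 5.07 times (4.04 to 6.36). Each of these ratios was above at least 95.4% of those of all genes tested. Epgn was the only ligand not called, with a P0 level 0.788 times (0.657 to 0.939) that at E15.5. Leaving out, for each gene, the 1 cell of each class with most of its UMIs gave a log2 ratio of 3.72 for Areg against 3.93 with all cells.

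E15.5 epithelium held skin-like cells, whereas no P0 cluster was named skin-like, so the ratios were also taken without them. Without the 16 skin-like cells of E15.5 the count of genes called higher was again 6, the log2 ratio of Ereg was 5.10 instead of 2.90, and that of Epgn was 0.01 instead of -0.34. The unnamed cluster 4 of E15.5, described below, stayed in. Dcn and Slc1a3 were leading genes of both this cluster and the skin-like cluster of E13.5, and whether its cells are epidermal was not tested. Against only the 85 mammary-like cells of E15.5, where 7 genes were called higher, the log2 ratio was 5.32 for Areg, 5.41 for Btc, 3.93 for Hbegf, 2.87 for Tgfa and 1.67 for Epgn. The Btc value rests on 1 UMI in these 85 cells, so its size is poorly known. The shares of all genes given above belong to the comparison with all E15.5 epithelium. The counts of 6 and 7 under these changed bases were therefore not read against them. The size of the ligand ratios, and the side of 1 on which Epgn lay, therefore depended on which E15.5 cells were taken as the base. The mammary-like name rests on the fixed bud and sprout markers. Of these, the study gives Ndnf and Pthlh as markers of basal-like mammary cells at E15.5. Some unnamed clusters of E15.5 were led by genes that the study gives for hybrid or luminal-like mammary cells. The mammary-like class may thus be only a part of the mammary epithelium.

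The P0 library was also set against E14.5, which was processed with the same Cell Ranger version. This comparison shares the P0 cells with the first and had only 2, 1 and 1 UMIs of Btc, Ereg and Tgfa at E14.5. Of the 10 genes 7 were called higher and 1 lower, against 14.4% and 25.7% of 9869 genes tested. Areg was 70.7 times (45.7 to 116) higher, Hbegf 16.2 times (11.4 to 23.8) and Epgn 2.81 times (1.83 to 4.48), while Erbb2 was called lower at 0.380 times (0.232 to 0.619) the E14.5 level. The Erbb2 call was lost with thinned cells, at 12.2 CPM at P0 and 13.3 CPM at E14.5, a ratio of 0.913. An Erbb2 UMI was then left in only 3 E14.5 cells. Egfr, not called with all UMIs, was past the 2-fold rule with thinned cells, at 0.467 times the E14.5 level. Between E13.5 and E15.5, 4 of the 9 genes with enough UMIs were called higher at E15.5 and none lower, against 14.9% and 14.8% of 12059 genes. These were Areg at 9.90 times (5.98 to 17.8), Tgfa at 11.7 times (3.19 to 97.5), Hbegf at 2.38 times (1.83 to 3.15) and Epgn at 2.30 times (1.78 to 3.02). The make-up of the cells differed, since 45 of the 98 E13.5 cells were skin-like and 31 periderm-like. Without the skin-like and periderm-like cells of both stages 2 genes were called higher, Areg and Hbegf, and the log2 ratio of Epgn was 0.53 instead of 1.20. Among mammary-like cells alone Hbegf was called higher and Epgn and Erbb2 lower, with a log2 ratio of -1.12 for Epgn, which was at 37.7 CPM (20.6 to 63.3) at E13.5 and 17.3 CPM (12.1 to 24.1) at E15.5. The higher Epgn level at E15.5 was thus found in all epithelial cells and not between the classes named mammary-like. These classes need not hold like cells, since that of E15.5 may be only a part of the mammary epithelium. At E15.5 Epgn was higher in the unnamed cluster 0, described below, than in the mammary-like class. Calls over all genes were not counted for these smaller sets of cells. The E15.5 cells are shared with the first comparison.

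The receptors stood apart from the ligands called higher at P0 than at E15.5, and like Epgn had ratios below 1. Egfr was at 64.2 CPM (53.6 to 76.1) at E13.5, 54.2 CPM (42.2 to 68.6) at E14.5, 56.5 CPM (52.7 to 60.6) at E15.5 and 29.1 CPM (22.9 to 36.4) at P0. The 3 embryonic intervals overlapped, and the P0 level was 0.514 times (0.401 to 0.651) the E15.5 level, just short of the 2-fold rule. Erbb2 was at 24.0, 32.2, 20.3 and 12.2 CPM in stage order, with a P0 over E15.5 ratio of 0.603 (0.405 to 0.871). Erbb3 had the highest level of the 3 at every stage, at 106 CPM (92.6 to 121), 62.8 CPM (49.8 to 78.2), 146 CPM (140.2 to 153) and 90.7 CPM (79.5 to 103), with a ratio of 0.619 (0.539 to 0.708). None of the 3 receptors was called in either direction between E15.5 and P0. With every cell thinned, or without the top cell of each gene, Egfr was just past the rule, with a lowest ratio of 0.494. Against the mammary-like cells of E15.5 alone the log2 ratios of the receptors were -0.17 for Egfr, 0.04 for Erbb2 and -0.32 for Erbb3.

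Errfi1 was high at P0 in both tissues. In epithelium its level was 98.9, 84.8, 58.3 and 672 CPM (641 to 704) in stage order, and in mesenchyme 27.4, 25.1, 91.2 and 842 CPM (807 to 879). Its P0 over E15.5 ratio was 11.5 in epithelium and 9.24 (8.46 to 10.1) in mesenchyme. Errfi1 is also known to be induced by stress, and digestion differed at P0. Of 9 dissociation and stress genes in epithelium, Dusp1 was called higher at P0 (3.19 times), Hspa1a, Hspa1b, Atf3 and Hspb1 were called lower (0.0465 to 0.455 times) and 4 were not called. The summed level of these 9 genes was 3398 CPM at E13.5, 4983 CPM at E14.5, 8193 CPM at E15.5 and 3375 CPM at P0, with none at 0. Their part in the Errfi1 and ligand levels was not tested.

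**Figure D3:**
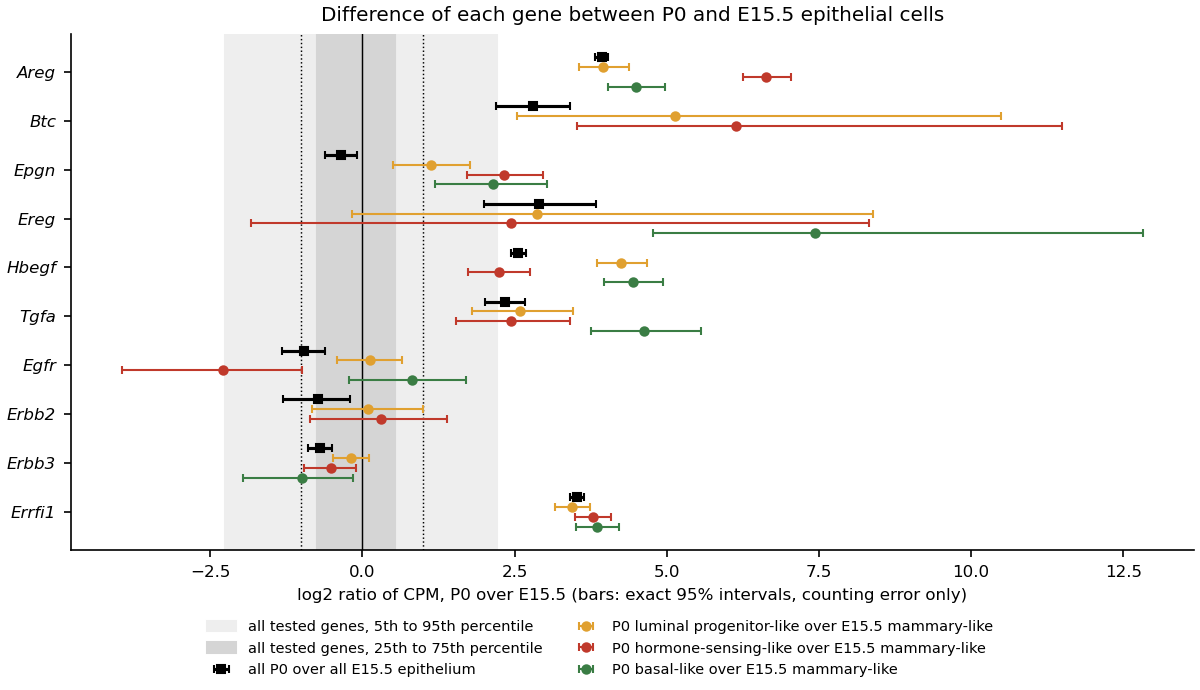
Log2 ratio of CPM between P0 and E15.5 for each gene, for all epithelium (black squares) and for each P0 class over the E15.5 mammary-like cluster (coloured points), with exact 95% intervals, dotted lines at 2-fold and grey bands for all genes tested. The 5 called ligands and Errfi1 lie right of the 2-fold line in all epithelium, the receptors lie left of 0, and genes with no UMI in basal-like cells (Btc and Erbb2) have no point there.

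Most of the 10 genes were higher in epithelium than in mesenchyme of the same library, which shares its dissociation and sequencing. At E13.5, 4 of the 6 genes with enough UMIs were called higher in epithelium and none lower, against 10.3% and 21.9% of 10630 genes. At E14.5, 6 of 7 were called higher and none lower, against 14.7% and 17.5% of 9067 genes. At E15.5, 8 of 10 were called higher and none lower, against 16.8% and 22.5% of 13149 genes. At P0, 7 of 10 were called higher and 1 lower, against 24.7% and 18.9% of 10496 genes. The share of members called higher was above that of all genes at each stage. At E14.5 Areg (20 against 0 UMIs), Epgn (25 against 2) and Erbb3 (80 against 0) met the minimum through epithelium alone. Genes like these could be called higher or left out, so the counts are a description only. With every cell thinned to 5000 UMIs, 2 genes were called higher at E13.5 and 1 at E14.5. Fewer genes then had enough UMIs, so these counts are not out of the 6 and 7 genes above. With mammary-like cells alone as epithelium 5 were called higher at E15.5. The shares of all genes above belong to unthinned cells and all epithelium, so the counts under these changed settings were not read against them.

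Erbb3 was epithelial at every stage. Its epithelium over mesenchyme ratio was 42.7 (19.3 to 118) at E13.5, at least 17.6 at E14.5, where mesenchyme had no UMI, 31.3 (22.3 to 45.3) at E15.5 and 32.5 at P0. The floor behind the E14.5 bound is 3 UMIs in the mesenchymal class. Epgn was 36.6 times (9.71 to 309) higher in epithelium at E13.5, 8.23 times (2.05 to 71.7) at E14.5, 63.4 times (32.1 to 147) at E15.5 and 46.0 times (15.4 to 226) at P0. Areg was 27.8 times (17.7 to 46.4) higher in epithelium at E15.5 and 75.3 times (54.5 to 107) at P0. The 37 mesenchymal Areg UMIs at P0 amounted to 1.33% of the epithelial level. That is below the 2.66% to 10.4% at which the 6 epithelial marker genes were found in P0 mesenchyme. Whether these UMIs are background was not tested.

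Hbegf was not called between the tissues at the 2 earlier stages and was called higher in epithelium at the later ones. At E13.5 it was at 28.9 CPM in epithelium and 33.2 CPM (26.3 to 41.3) in mesenchyme, and at E14.5 at 25.1 CPM and 21.5 CPM (12.7 to 33.9), without a call. At E15.5 it was 3.67 times (3.07 to 4.43) and at P0 9.10 times (7.49 to 11.2) higher in epithelium. Without skin-like and periderm-like cells it was called lower in epithelium at E13.5, with a log2 ratio of -2.04. With mammary-like cells alone as epithelium the E15.5 log2 ratio was 0.51, which is inside the 2-fold rule. Hbegf made up 61.5% (54.1 to 68.6) of the mesenchymal ligand pool at P0, a pool of 72.6 CPM (62.4 to 83.9). Ereg was not called between the tissues at P0, with 9.94 CPM (6.50 to 14.6) in epithelium and 6.38 CPM (3.65 to 10.4) in mesenchyme. That mesenchymal level was 64.2% of the epithelial one, above the range of the epithelial markers.

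Egfr lay on opposite sides at E15.5 and P0. It was 1.52 times (1.16 to 1.98) higher in epithelium at E13.5, 2.06 times at E14.5 and 5.62 times (4.42 to 7.25) at E15.5, whereas at P0 the epithelial level was 0.447 times (0.336 to 0.591) the mesenchymal one. Without skin-like and periderm-like cells the E13.5 ratio turned to -0.17 on the log2 scale. With thinned cells the E14.5 levels were 57.8 CPM in epithelium and 45.2 CPM in mesenchyme, a ratio of 1.28, inside the 2-fold rule. Mesenchymal Egfr was at 42.4 CPM (34.5 to 51.4), 26.3 CPM (16.5 to 39.7), 10.1 CPM (7.88 to 12.6) and 65.0 CPM (55.4 to 75.8) in stage order. Averaging the CPM of single cells, in place of summing UMIs, gave a log2 ratio of -0.88 at P0 instead of -1.16, which is inside the 2-fold rule.

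In mesenchyme of P0 against E15.5, 6 of 8 genes with enough UMIs were called higher and none lower, against 14.3% and 28.2% of 11774 genes. Besides Errfi1 and Egfr (6.46 times, 4.88 to 8.64) these were Ereg (7.72 times, 2.87 to 24.1), Areg (5.64 times, 3.16 to 10.4), Tgfa (2.90 times, 1.19 to 7.05) and Hbegf (2.38 times, 1.84 to 3.08). The mesenchymal Areg level at P0 was below the range of the epithelial markers given above, and that of Tgfa, at 8.23% of the epithelial level, was inside it. The top of that range is Trp63 (10.4%), at only 0.399 CPM in P0 mesenchyme, and the next marker, Grhl2, was at 5.35%. Whether the Areg and Tgfa UMIs are background was not tested. Hbegf was just above that range. In P0 mesenchyme 2 red cell genes, Hbb-bs and Hba-a1, summed to 6566 CPM, with at least 5 UMIs in 5 cells. Their part in these levels was not tested.

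To place the transcripts within epithelium, the epithelial cells of each library were clustered with the 10 genes and the listed pathway genes left out of the variable genes. A cluster was named only where markers of a cell type were detected and raised. At P0 there were 165 luminal progenitor-like cells in 2 clusters, 46 hormone-sensing-like and 19 basal-like cells. At E15.5 there were 85 mammary-like cells (leading genes Ndnf and Tbx3), 16 skin-like cells (Krt1 and Krt10) and 4 clusters left unnamed. The unnamed clusters were cluster 0 with 214 cells (Cd74 and Ntm), cluster 1 with 109 (Krt4 and Ly6d), cluster 3 with 64 (Top2a and Mki67) and cluster 4 with 44 (Dcn and Has2). An unnamed cluster is one that did not pass the marker rule, which does not set it outside the mammary epithelium. Names rebuilt here may differ from those of the study. The study names Ndnf and Pthlh for basal-like, Cd74 for hybrid and Ly6d for luminal-like mammary cells at E15.5. These were leading genes of the mammary-like class, cluster 0 and cluster 1 in turn. Cells were not matched to the clusters of the study. Values between clusters of 1 library are descriptions, without a test.

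At P0 Areg was concentrated in hormone-sensing-like cells. These 46 cells, 20% of P0 epithelial cells, held 70.8% of the Areg UMIs of P0 epithelium, at 2762 CPM (2644 to 2884). They were also the deepest class, with 743942 of the 2614403 UMIs of P0 epithelium. Of their 2055 Areg UMIs, 466 were in 1 cell. The luminal progenitor-like clusters were at 334 CPM (298 to 372) and 565 CPM (511 to 624), and basal-like cells at 626 CPM (524 to 743). The ratio of hormone-sensing-like to luminal progenitor-like cells was 6.40 (5.88 to 6.98). The median was 31 UMIs per hormone-sensing-like cell, and 1 and 3 in the luminal progenitor-like clusters. In basal-like cells the median was 0, with 87 of 131 UMIs in 1 of 19 cells. Esr1, the oestrogen receptor gene and 1 of the 7 markers behind the hormone-sensing name, was at 20.2 CPM (15 UMIs) in these cells and at 4.17 and 2.85 CPM (4 and 2 UMIs) in the luminal progenitor-like clusters. All 7 proliferation markers were also raised in the hormone-sensing-like cluster, and their part in the Areg level was not tested.

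The other ligands were not all arranged like Areg. Hbegf was lowest in hormone-sensing-like cells, at 126 CPM (102 to 155), against 491 and 535 CPM in the luminal progenitor-like clusters and 583 CPM in basal-like cells. Its ratio of hormone-sensing-like to luminal progenitor-like cells was 0.248 (0.198 to 0.307). Tgfa was at 196 CPM (141 to 266) in basal-like cells, 4.12 times (2.75 to 6.08) the luminal progenitor-like level. Ereg was at 86.0 CPM (51.0 to 136) in basal-like cells, from 18 UMIs of which 15 were in 1 cell, and at 2.69 to 4.27 CPM elsewhere. Epgn and Btc were highest in hormone-sensing-like cells, as Areg was. Epgn was at 87.4 CPM there, 2.30 times (1.60 to 3.31) the luminal progenitor-like level. Its ratio to basal-like cells was 1.14 (0.654 to 2.12), an interval that includes 1. Btc was at 34.9 CPM (26 UMIs), 2.00 times (1.13 to 3.52) the luminal progenitor-like level, with no UMI in basal-like cells. Areg and Hbegf thus lay in opposite order between hormone-sensing-like and luminal progenitor-like cells, and Tgfa and Ereg were highest in basal-like cells.

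Egfr was lowest where Areg was highest. It was at 6.72 CPM (2.18 to 15.7, 5 UMIs) in hormone-sensing-like cells, against 32.3 CPM (22.0 to 45.9) and 39.9 CPM (26.5 to 57.6) in the luminal progenitor-like clusters and 57.4 CPM (29.6 to 100.2) in basal-like cells. The ratio of hormone-sensing-like to luminal progenitor-like cells was 0.189 (0.0593 to 0.467), although hormone-sensing-like cells were the deeper class, at a median of 13898 UMIs against 9080 and 10079. Erbb3 differed less, at 79.3 CPM in hormone-sensing-like, 112 and 84.0 CPM in luminal progenitor-like and 57.4 CPM in basal-like cells, and these intervals overlapped. Erbb2 was at 11.5 to 14.8 CPM in the other clusters and had no UMI in the 19 basal-like cells, where 3 UMIs would be 14.3 CPM. Errfi1 was high throughout, from 566 to 813 CPM.

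At E15.5 Epgn, Areg and Hbegf were higher in skin-like than in mammary-like cells. The size of this difference depended on the base. Over all other epithelium the skin-like ratio was 9.21 (7.94 to 10.6) for Epgn, 2.46 (1.94 to 3.08) for Areg and 3.98 (3.26 to 4.82) for Hbegf. Epgn was at 503 CPM (442 to 569.9) in skin-like cells, 229.9 CPM (202 to 260.4) in cluster 4 and 17.3 CPM (12.1 to 24.1) in mammary-like cells. The 16 skin-like cells, 3.01% of E15.5 epithelium, held 24.5% of its Epgn UMIs, and the 44 cells of cluster 4 held 24.8%. The Epgn ratio of skin-like to mammary-like cells was 29.0 (20.3 to 42.6), though with log-normalized clustering the skin-like class took in 128 cells and the log2 ratio was 2.02 instead of 4.86. Areg was at 170.3 CPM (136 to 211) in skin-like cells, 139 CPM (118 to 163) in cluster 4 and 27.8 CPM (21.0 to 36.0) in mammary-like cells. Hbegf was at 248 CPM (206 to 297) in skin-like and 26.8 CPM (20.1 to 34.9) in mammary-like cells. In cluster 1 Areg was at 63.0 CPM and Hbegf at 92.6 CPM, and in cluster 4 Hbegf was at 75.1 CPM. The intervals of Areg in skin-like cells and cluster 4 overlapped. So did those of Epgn and of Hbegf in mammary-like cells and cluster 3, where Epgn was at 18.8 CPM (13.7 to 25.1) and Hbegf at 29.6 CPM (23.1 to 37.3). Skin-like cells also held 15 of the 19 Ereg UMIs of E15.5 epithelium. Tgfa had no UMI in them, where 3 UMIs would be 6.16 CPM. Among the receptors Egfr followed the ligands, at 90.3 CPM (65.6 to 121) in skin-like and 32.7 CPM (25.3 to 41.6) in mammary-like cells, while Erbb2 and Erbb3 were highest in cluster 1, at 32.5 CPM (26.5 to 39.4) and 218 CPM (202 to 235). Erbb2 was at 24.1 CPM in cluster 4, from 26 UMIs. Erbb3 was at 179 CPM in skin-like cells, from 87 UMIs, which was 1.57 times (1.21 to 2.02) the mammary-like level.

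Each P0 class was also set against the 85 mammary-like cells of E15.5, which these ratios share as their base. Areg was 99.5 times (76.3 to 132) higher in hormone-sensing-like cells, 15.6 times (11.8 to 20.8) in luminal progenitor-like cells and 22.6 times (16.4 to 31.4) in basal-like cells. Hbegf was 4.72 times (3.34 to 6.73), 19.1 times and 21.8 times (15.7 to 30.6) higher in the same order. Epgn was 5.04 times (3.29 to 7.83), 2.19 times (1.42 to 3.41) and 4.41 times (2.28 to 8.18) higher. For Epgn this depended on the base, since it was at 63.1 CPM (56.4 to 70.3) in cluster 0 of E15.5 and at 33.4 CPM (22.8 to 47.1) and 44.1 CPM in the luminal progenitor-like clusters of P0. Egfr was 0.205 times (0.0646 to 0.504) the E15.5 mammary-like level in hormone-sensing-like cells, and 1.09 times (0.751 to 1.57) and 1.75 times (0.863 to 3.27) in the luminal progenitor-like and basal-like cells, whose intervals include 1. The ratios of Areg, Hbegf and Egfr depended on the base too. These genes were at 63.0, 92.6 and 69.0 CPM in cluster 1 of E15.5, against 27.8, 26.8 and 32.7 CPM in the mammary-like cells.

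**Figure D4:**
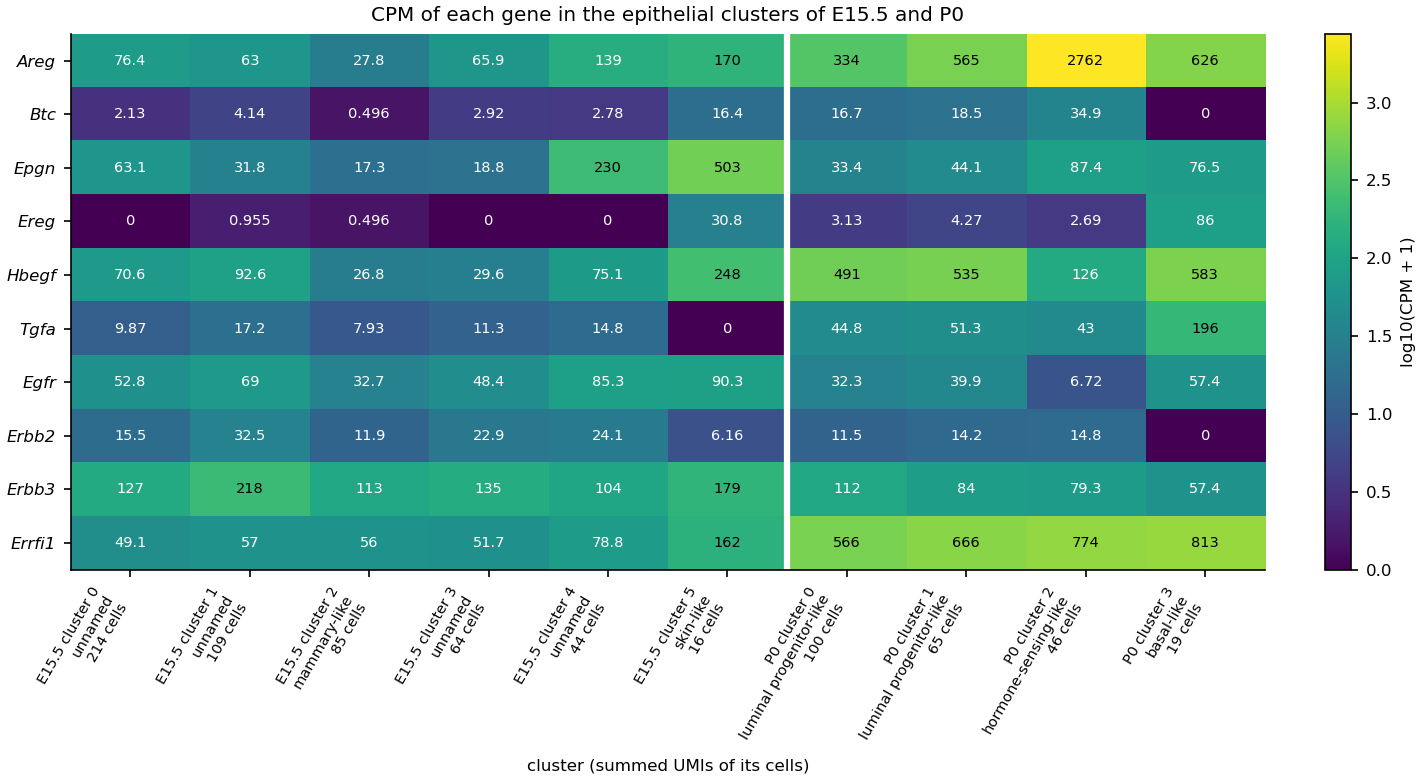
CPM of each gene (number in each cell, colour as log10 of CPM + 1) in the epithelial clusters of E15.5 (left of the white line) and P0 (right), with the number of cells under each column. Areg is at 2762 CPM in the P0 hormone-sensing-like cluster, where Egfr is at 6.72 CPM, and Epgn is at 503 CPM in the E15.5 skin-like cluster.

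**Figure D5:**
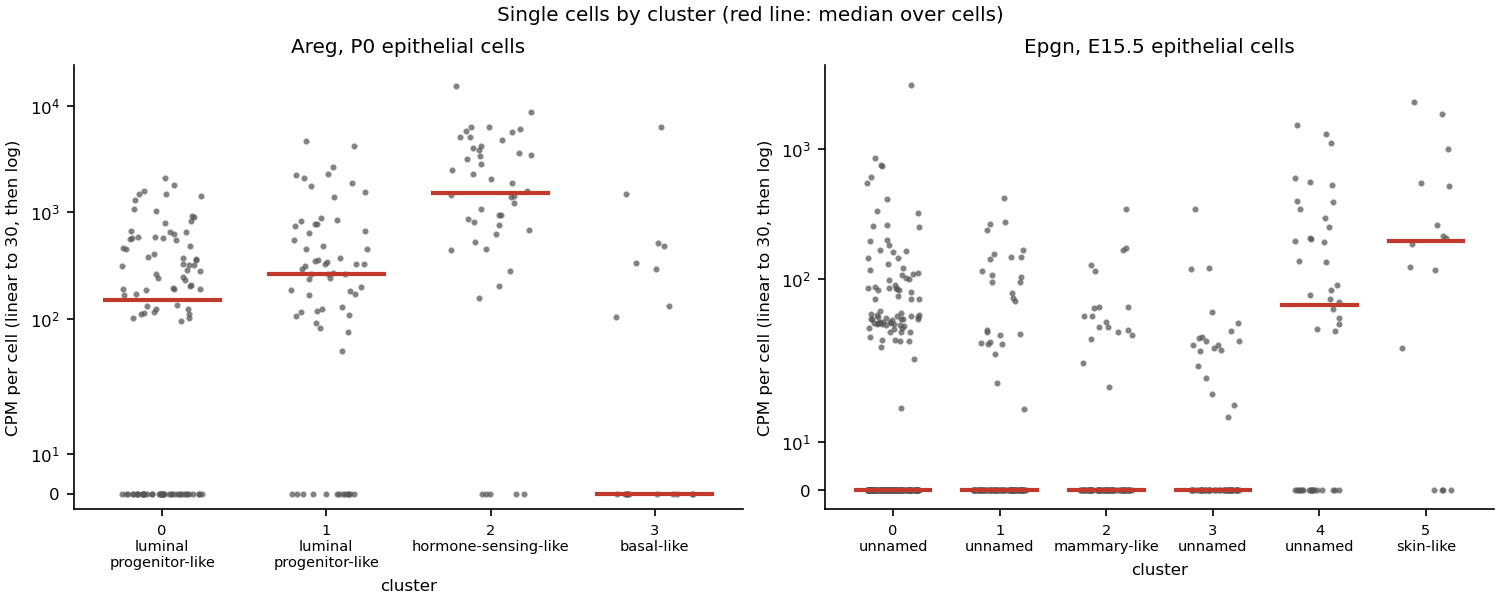
CPM of Areg in single P0 epithelial cells (left) and of Epgn in single E15.5 epithelial cells (right) by cluster, on an axis that is linear to 30 CPM and then logarithmic, with a red line at the median over cells. The median Areg level is above 0 in the luminal progenitor-like and hormone-sensing-like clusters and 0 in basal-like cells, and the median Epgn level is above 0 only in cluster 4 and in skin-like cells.

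The earlier libraries held few epithelial cells. At E13.5 Hbegf was at 82.7 CPM (60.5 to 110.3) in 31 periderm-like cells against 8.08 CPM (1.67 to 23.6, 3 UMIs) in 22 mammary-like cells, a ratio of 10.2 (3.29 to 51.4). Errfi1 was at 203 CPM (167 to 244) in periderm-like and 59.2 CPM (37.1 to 89.7) in mammary-like cells. Areg had 7 UMIs in the periderm-like, 7 in the mammary-like and 1 in the 45 skin-like cells. At E14.5 the 32 mammary-like cells were at 19.0 CPM (10.9 to 30.9) for Areg, 23.8 CPM for Epgn and 28.5 CPM (18.3 to 42.5) for Hbegf, levels whose intervals overlapped. Erbb3 was at 86.8 CPM (68.0 to 109) in these cells and at 16.2 CPM (6.51 to 33.4) in the 13 skin-like cells. All 7 proliferation markers were also raised in these skin-like cells, and their part in the levels was not tested.

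Cells with UMIs of several ligands were common at P0. At least 2 ligands were detected in 74.8% (68.7 to 80.3) of P0 epithelial cells and in 51.1% (46.8 to 55.5) of E15.5 cells, and after thinning to 5000 UMIs in 60.9% (54.2 to 67.2) and 14.7% (11.8 to 18.0). Areg and Hbegf were found together in 41.7% (35.3 to 48.4) of thinned P0 cells and 5.45% (3.68 to 7.74) of thinned E15.5 cells. Taken singly, Areg was in 62.2% and Hbegf in 64.8% of thinned P0 cells, and in 22.2% and 24.2% of thinned E15.5 cells. Whether they met more often than these single shares imply was not tested. A ligand without an Egfr UMI was found in 78.3% (72.4 to 83.4) of thinned P0 cells and 38.0% (33.8 to 42.2) of thinned E15.5 cells. At least 1 ligand was in 88.7% and 50.6% of these cells and Egfr in 11.7% and 22.2%, so a separation of ligand and receptor was not tested. At this depth a cell without an Egfr UMI may still express the gene.

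The wider pathway was read from 6 lists, of which the stress genes are given above. Of 6 other ligands and receptors, 4 had enough UMIs for P0 over E15.5 epithelium. Nrg2 (3.76 times, 1.58 to 8.62) and Nrg1 (3.14 times, 2.64 to 3.73), which encode neuregulins, were called higher. Nrg3, with 82 UMIs at E15.5 and none at P0, was at most 0.200 times as high, and Erbb4, the gene of a neuregulin receptor, was at 0.308 times (0.205 to 0.448), both called lower. At P0 Nrg1 was at 621 CPM in basal-like cells, from 130 UMIs, against 12.1 to 44.8 CPM in the other clusters.

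The next 2 lists hold genes that release the ligands or carry their signal. Their counts are read against the 15% and 18.5% of all genes tested that were called higher and lower. Of 6 shedding and trafficking genes tested Rhbdf2, an iRhom partner of the shedding protease ADAM17, was called higher (2.91 times, 2.12 to 3.97) and Rhbdl2, a rhomboid protease gene, lower (0.364 times, 0.0962 to 0.983), while Adam17 itself was at 1.87 times (1.44 to 2.40). Of 15 adaptors and signal carriers none was called higher and Hras (0.392 times) and Pik3ca (0.460 times) were called lower. The list medians were 0.34 and -0.07 on the log2 scale, against -0.11 for all genes tested.

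Negative regulators and ERK target genes are read against the same percentages of all genes. Of 15 negative regulators 4 were called higher, namely Lrig1 (6.79 times, 4.05 to 11.5), which promotes ErbB receptor degradation, Socs3 (4.33 times), the ERK phosphatase gene Dusp5 (4.03 times) and Spry2 (2.71 times). Spred2 (0.348 times) and Spry1 (0.379 times) were called lower. Of 12 ERK target genes 4 were called higher, namely Plaur (16.7 times, 15.1 to 18.5), the urokinase receptor gene, Myc (4.23 times), Fosl1 (2.56 times) and Phlda1 (2.33 times), and Etv4 was called lower (0.389 times). Egr1, an immediate early gene, was at 0.615 times (0.554 to 0.682). The list medians were 0.21 and 0.68 on the log2 scale.

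The genes whose levels ran most like each member over the 8 classes of stage and tissue are given as a description, among 5221 genes with at least 50 CPM in a class. The 8 classes share 4 libraries, and Pearson's r, given after each gene, was taken on log2 of CPM + 10. For Areg these were Urah (0.995), Plau (0.991), which encodes urokinase, and Muc15 (0.985). For Hbegf they were Tnip3 (0.987), Muc15 (0.982) and Sgms2 (0.977), and for Epgn Stxbp3 (0.990), Spint1 (0.989) and Cnih4 (0.983). For Erbb3 they were Mpzl2 (0.997), F11r (0.995) and Pkp3 (0.995), all genes of epithelial adhesion. For Errfi1 they were Myc (0.970), Txnrd1 (0.961) and Ptgs2 (0.956), and for Egfr the closest was Ccdc12 (0.886).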

How the data were processed

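The authors deposited UMI counts per gene and barcode, made with Cell Ranger against mm10. The matrix header of E15.5 gives version 3.1.0, and the other 3 headers and the submitters' processing notes give 6.0.0. Of the barcodes, 5000 UMIs and 6% mitochondrial UMIs left a median of 8743 to 26725 UMIs per cell of a class. Cells, tissues and levels were taken as described above, with counts summed per class and no test, since each stage was 1 library. Pooled animals within a library could not be separated. A class at 0 was set to a floor of 3 UMIs for ratios. The fold rule, the exact intervals and the thinning were checked on simulated Poisson counts, which hold no further spread between cells. The tissue rule, the clustering and the naming were not checked in this way.

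Epithelial cells were clustered per library with Seurat 5.3.0 (SCTransform, 2000 variable genes, 15 components, resolution 0.8). A name needed 3 markers detected in 25% of cells, 2 raised by a log2 fold of 0.5 and a mean log2 fold of 0.25. Doublets had been excluded during sorting according to the labels. Scrublet (scanpy 1.11.5) marked 1, 7, 6 and 3 cells in stage order, and these were left out only as an alternative.

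All 10 members are named. Of each pathway list the text gives the counts and up to 4 genes with the largest absolute log2 ratio and at least 20 UMIs, and for likeness the 3 closest genes. Adam17, Egr1, Spry1, Spry2, Phlda1, Hspb1 and the clusters and examples singled out beyond these rules were chosen after their values were seen. The members and lists were chosen with earlier results of these data known. The alternatives were other cell filters, tissue rules, thinning, doublet removal, skin-like clusters left out, per-cell means, TMM scaling, other folds and minimums, and other clusterings.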

Additional observations from a re-analysis of the deposited data

Results flagged for a closer look

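Egfr was flagged because its level differed in opposite directions in the 2 tissues between E15.5 and P0. In epithelium the P0 level was 0.514 times that at E15.5 (76 against 808 UMIs), and in mesenchyme it was 6.46 times that at E15.5 (163 against 73 UMIs). The epithelial side depended on the cells compared. Against E15.5 mammary-like cells Egfr was at 0.205 times (0.0646 to 0.504) in P0 hormone-sensing-like cells. It was at 1.09 times (0.751 to 1.57) in luminal progenitor-like and 1.75 times (0.863 to 3.27) in basal-like cells. With 1 library per stage the difference between the tissues was not tested.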

How the results depend on the processing

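No paired analysis was possible because each stage has 1 library, so that no groups share replicate numbers. Between P0 and E15.5 epithelium, and between the tissues, no log2 ratio of a member called at 2-fold changed sign under the alternatives run, while that of Epgn between P0 and E15.5, not called, ranged from -0.43 to 1.67. Of the called ratios of the other 2 comparisons of epithelium, run under 6 alternatives chosen after seeing the data, 3 changed sign. With mammary-like cells alone the log2 ratio of E15.5 over E13.5 was -1.12 for Epgn and -0.027 for Tgfa, the latter against the floor of 3 UMIs, and with thinned cells that of P0 over E14.5 was -0.032 for Ereg, which then had no UMI at E14.5. Other ratios not called changed sign under some alternatives. In epithelium these were Erbb2 between P0 and E15.5 and Egfr between E15.5 and E13.5, whose log2 ratio ranged from -0.205 to 0.554. Between the tissues they were Egfr at E13.5, Hbegf at E13.5 and at E14.5, and Ereg at E15.5. Leaving out a replicate was not possible with 1 library per stage. Counts of called members that moved by over 1.5 times did so as follows. Thinning to 5000 UMIs called 1 gene lower at P0 than at E15.5. It left 2 genes called higher in epithelium at E13.5 and 1 at E14.5. Fewer UMIs then remained, and the E14.5 ratio of Egfr was 1.28 instead of 2.06. Without skin-like and periderm-like clusters 1 gene was called lower in epithelium at E13.5. With the mean of per-cell CPM 0 genes were called lower in epithelium at P0. With no minimum of UMIs 1 gene was called lower in epithelium at E14.5. A fold of 1.5 called 3 genes lower at P0 and 1 lower in epithelium at E15.5. Over all genes, no minimum called 3317 higher at P0, and a fold of 1.5 called 2895 higher and 3748 lower, against 1838 and 2265. Between E13.5 and E15.5 epithelium 2 genes were called higher without skin-like and periderm-like clusters, 1 was called lower with the mean of per-cell CPM, and 1 was called higher and 2 lower with mammary-like cells alone, and between P0 and E14.5 TMM scaling called 0 lower. With thinned cells Egfr, and no longer Erbb2, was past 2-fold lower between P0 and E14.5. Under 2 alternatives chosen after seeing the data, mammary-like cells alone gave 1 gene lower in epithelium at E13.5 and 5 higher at E15.5, and leaving out the top cell of each gene called 1 gene lower at P0.

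Thinning moved the Areg share of the ligand pool to 3.85% at E13.5, to 61.5% at E14.5 and to 61.0% at P0, the Epgn share to 28.4% at E15.5 and to 4.21% at P0, and the Hbegf share to 7.69% at E14.5, to 32.3% at E15.5 and to 29.2% at P0. Without skin-like and periderm-like clusters the shares at E13.5 were 28.0% for Areg, 56.0% for Epgn and 12.0% for Hbegf, and at E15.5 34.5% for Areg and 27.2% for Epgn. The log2 ratio of Areg, hormone-sensing-like over luminal progenitor-like, was 2.55 at resolution 0.4 and 2.48 with log-normalization, which also gave -2.40 for Hbegf there and, for skin-like over mammary-like cells at E15.5, 2.02 for Epgn and 1.13 for Areg. The cause of these moves was not tested. TMM scaling shifted every log2 ratio of epithelium over mesenchyme by -0.25 at P0 and 0.18 at E13.5, and every ratio of P0 over E14.5 by 0.46.

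Depth limits the E13.5 and E14.5 values most, where 3 UMIs in epithelium are 1.47 and 2.36 CPM. UMI counts show transcripts, not shed ligand or receptor protein. Cells of a class come from 1 pool, so no interval covers the spread between animals.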
